A study of Caenorhabditis elegans with 2 samples.

Results

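Nuclear hormone receptor genes of Caenorhabditis elegans were examined for peaks of chromatin precipitated with a GFP-tagged UNC-3. The genes were taken by symbol: every protein-coding gene on the nuclear chromosomes whose symbol is nhr- followed by a digit in Ensembl release 115, which gave 269 of 19973 protein-coding genes. Each was searched in a window from 2000 bp upstream of its annotated 5' end to its 3' end, and a peak counted by its summit. The rule rests on names and not on protein domains, so receptors with other names, such as daf-12 and unc-55, were not among the 269.

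The data are transcription factor ChIP-seq peak lists from whole late embryos aged 2.5 hours, synchronised by bleaching of eggs. The study has a single group, with biological replicates 1 and 2. Both are of strain RW12259, which carries a CRISPR insertion, st12259, that fuses unc-3 to TY1, EGFP and 3xFLAG. GFP antibody was used per the description, although the antibody field names unc-3, and per the labels the allele is on II, whereas unc-3 is annotated on X. The labels name no treatment, and no control sample was used here, so peaks are reported as enriched sites of the pulldown and not as UNC-3 binding. Whole animals were used, so a site occupied in a few cells and a weakly occupied site in many cells cannot be told apart.

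Nuclear hormone receptors are transcription factors with a zinc finger DNA-binding domain and a ligand-binding domain that can hold lipids, sterols or other small molecules. The family is greatly expanded in nematodes, mostly from an ancestor related to the vertebrate receptor HNF4, and a small set has clear counterparts in insects and vertebrates. The conserved members are known for roles in moulting, epidermal development and metabolism. UNC-3 is the worm COE (Collier/Olf/EBF) factor, known for specifying cholinergic motor neurons.

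Of the 269 genes, 6 had a summit in the conservative list, the thresholded list of 631 peaks for both replicates: nhr-17, nhr-255, nhr-47, nhr-41, nhr-48 and nhr-66. This was 2.23% of the family (exact Clopper-Pearson 95% interval 0.823 to 4.79, covering counting error only), beside 3.59% of all protein-coding genes. For 3 of the 6, the summit lay inside a tRNA gene. Of all 631 conservative peaks, 160 (25.4%) had a summit within 500 bp of a tRNA gene. With summits within 500 bp of a tRNA gene set aside, nhr-47, nhr-48 and nhr-66 remained, 1.12% of the family (0.231 to 3.22) beside 2.89% of all genes. The interval includes the value for all genes in both cases, so the family's share was not distinguishable from it at this number of genes. The thresholded list of replicate 1 alone gave 2 genes, with 0 away from tRNA genes, and that of replicate 2 alone gave 4 and 2.

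The sequence around each of the 6 summits is shown because it separates the tRNA peaks from the others. All are from the RefSeq copy of WBcel235 (ce11), on the plus strand. In the lines for nhr-17, nhr-255 and nhr-41 capitals mark the tRNA gene, at chrX:12665161-12665311, chrX:15741984-15742134 and chrIV:1388174-1388324. In the lines for nhr-48 and nhr-66 capitals mark GAGAGA on either strand, at chrX:15707588-15707738 and chrIV:8232585-8232735. The line for nhr-47, chrV:5505168-5505252, stops where its annotated 5' untranslated region begins and holds no capitals.
nhr-17: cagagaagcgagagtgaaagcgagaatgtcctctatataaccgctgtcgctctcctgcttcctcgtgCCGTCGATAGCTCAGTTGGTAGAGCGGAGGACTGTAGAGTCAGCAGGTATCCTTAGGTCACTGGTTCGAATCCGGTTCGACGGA
nhr-255: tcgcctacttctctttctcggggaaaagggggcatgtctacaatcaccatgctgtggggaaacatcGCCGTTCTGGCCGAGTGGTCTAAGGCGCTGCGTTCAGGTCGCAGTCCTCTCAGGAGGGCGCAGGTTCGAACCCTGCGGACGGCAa
nhr-41: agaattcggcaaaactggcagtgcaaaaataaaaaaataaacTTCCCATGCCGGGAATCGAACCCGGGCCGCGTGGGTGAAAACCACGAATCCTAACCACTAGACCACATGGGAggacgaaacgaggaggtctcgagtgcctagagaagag
nhr-47: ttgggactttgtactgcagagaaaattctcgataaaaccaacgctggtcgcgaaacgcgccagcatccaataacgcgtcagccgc
nhr-48: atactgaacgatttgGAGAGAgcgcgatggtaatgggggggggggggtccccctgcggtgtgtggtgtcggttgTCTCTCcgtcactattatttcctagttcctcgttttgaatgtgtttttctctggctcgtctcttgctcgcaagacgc
nhr-66: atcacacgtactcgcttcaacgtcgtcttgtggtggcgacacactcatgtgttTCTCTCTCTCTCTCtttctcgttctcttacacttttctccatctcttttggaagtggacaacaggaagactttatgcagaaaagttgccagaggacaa

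The strongest peak in the family's windows lay in an intron of nhr-17 (WBGene00003616, chrX:12663837-12667854, minus strand). Its signal, the value the authors deposited for each peak with no unit given, was 214 in the conservative list, rank 22 of 631. Replicate 1 gave 97.99 and replicate 2 gave 119, each in its own ranked list, whose scale differs from that of the list for both. The peak, chrX:12665206-12665272, has its summit inside a tRNA-Tyr gene of 84 bases that is transcribed on the opposite strand from nhr-17. The nearest protein-coding 5' end, 1333 bp away, is not that of nhr-17 but of nlp-76, a neuropeptide gene. The tRNA gene sequence occurs 6 times in the nuclear genome, while the central 51 bases at the summit occur 1 time.

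At nhr-255 (WBGene00014068, chrX:15742610-15744298) the summit was 551 bp upstream of the 5' end and inside a tRNA-Leu gene. The signal was 187 in the conservative list, rank 49, with 88.5 in replicate 1 and 95.3 in replicate 2. This peak, chrX:15742050-15742115, and that of nhr-17 also passed into each replicate's own thresholded list, unlike the other 4. Both peaks were far narrower than the median width of 264 bp, as their coordinates show.

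The third tRNA peak lay in an intron of nhr-41 (WBGene00022423, chrIV:1386215-1399353), the counterpart of the vertebrate testicular receptors TR2 and TR4. Its summit was 2034 bp from the gene's 5' end and 152 bp from the 5' end of another transcript, inside a tRNA-Glu gene. The signal was 81.4, rank 318, with 38.0 for replicate 1 and 44.2 for replicate 2. Neither replicate's thresholded list held it. The tRNA-Glu sequence occurs 15 times in the nuclear genome and the central 51 bases of the peak 17 times, so reads could not be assigned to this copy by the central bases alone. The sources used here do not say how reads with several matches were treated.

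Away from tRNA genes the highest signal was at nhr-47 (WBGene00003637, chrV:5505253-5509956). The summit of chrV:5505111-5505374 lay 10 bp upstream of the annotated 5' end. The signal was 85.3 in the conservative list, rank 287, and 42.4 in replicate 1 and 45.9 in replicate 2. Replicate 2's thresholded list held it and replicate 1's did not. Of the 167 family members on chromosome V, this was the 1 with a conservative summit. The share over all genes on V was not computed.

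The nhr-48 gene (WBGene00003638, chrX:15708213-15716875) belongs to the group of daf-12 and nhr-8, which is related to the vertebrate vitamin D and pregnane X receptors. Its summit lay 550 bp upstream, in intergenic sequence, with a signal of 75.2, rank 379. Replicate 1 gave 35.1 and replicate 2 gave 40.9, and again only the thresholded list of replicate 2 held the peak. The nhr-255 gene lies 25734 bp downstream on the same strand.

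At nhr-66 (WBGene00003656, chrIV:8226331-8236602), which encodes a partner of NHR-49 in lipid metabolism, the summit lay in an intron, 822 bp from the nearest 5' end of the gene. The signal was 61.2, rank 536, with 31.1 in replicate 1 and 26.8 in replicate 2. It was the weakest of the 6 and was in neither replicate's thresholded list. The next summit below it in the family, in an intron of nhr-1, had a ranked signal of 60.8 but a lower reproducibility. The deposited irreproducible discovery rate (IDR), on a −log10 scale, was 2.07 at nhr-66 and 1.67 at nhr-1.

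**Figure D1:**
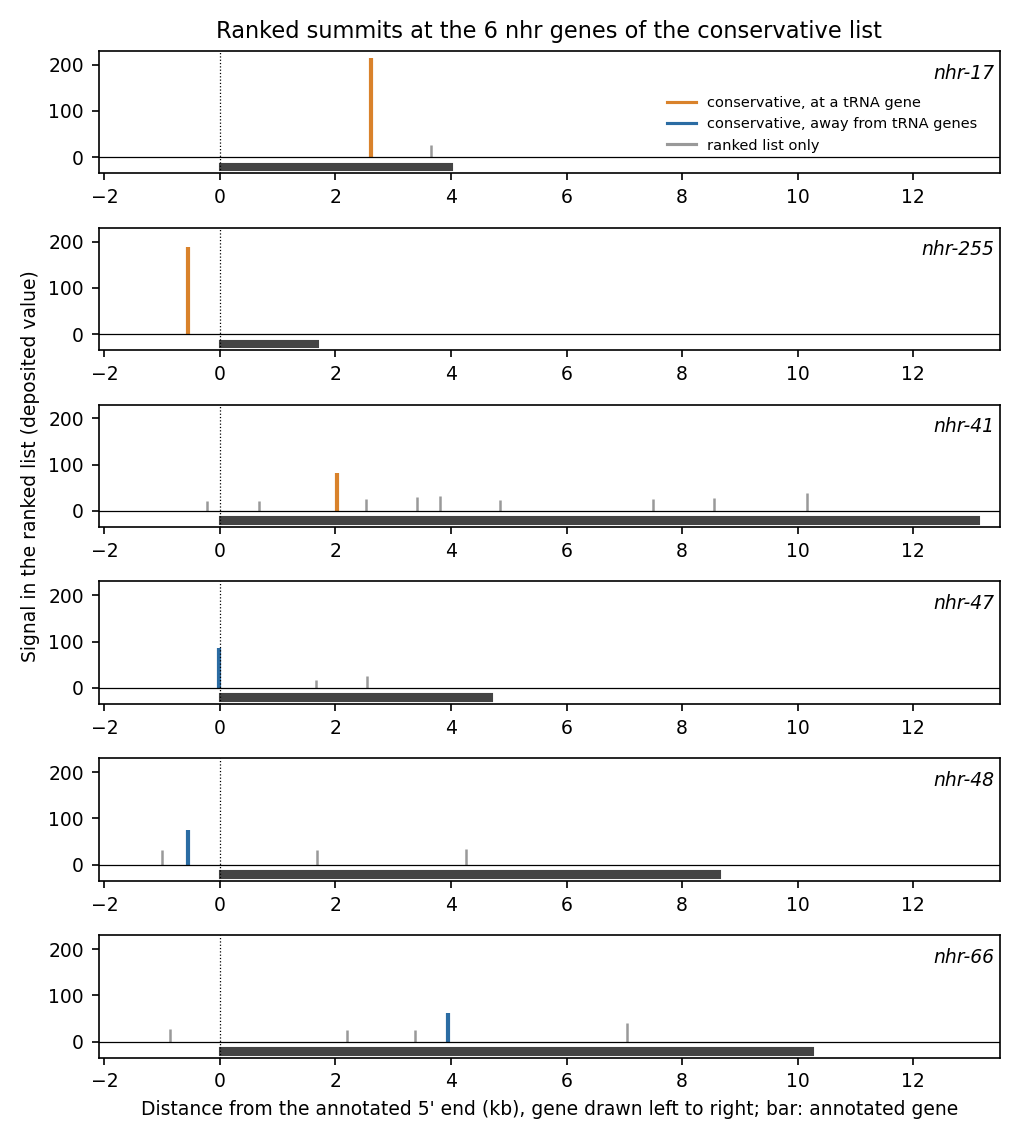
Signal (deposited value, vertical axis) of each summit of the ranked list for both replicates against its distance in kb from the annotated 5' end, for the 6 genes with a conservative summit. Orange lines are conservative summits at tRNA genes (214 at nhr-17, 187 at nhr-255, 81.4 at nhr-41), blue lines are the others (85.3, 75.2 and 61.2), grey lines are summits of the ranked list only, and the dark bar is the annotated gene.

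All 3 conservative peaks away from tRNA genes held the sequence GAGAGA within 100 bp of the summit, and none of the 3 at tRNA genes did. The nhr-66 intron held 5 overlapping matches in a run of TC repeats that ended 9 bp before the summit. The nhr-48 peak held 2, of which 1 covered the summit, and nhr-47 held 1, between 45 and 50 bp past it and inside the annotated 5' untranslated region. Of all 631 conservative peaks 29.2% held this sequence, and of all peaks in the longer, unthresholded ranked list 14.7%. The 631 include the 160 within 500 bp of a tRNA gene, and no share apart from those was computed. Neither the COE palindrome TCCCNNGGGA nor TGATAA, the sequence known for GATA factors, occurred at any of the 6. AGGTCA, the core sequence bound by many nuclear receptors, occurred at 1, nhr-17, inside the tRNA gene.

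Below the conservative list, weaker peaks were spread over the family much as over other genes. The longer ranked list for both replicates, called the ranked list here, also holds peaks that failed the IDR threshold. It placed 376 summits in the windows of 166 of the 269 genes (61.7%, exact 95% interval 55.6 to 67.5), beside 64.6% of all protein-coding genes. The other 103 had none. Leaving out summits within 500 bp of a tRNA gene gave 165 genes (61.3%), beside 64.2%. The windows of the family held 28.0 ranked summits per 100 kb, against 30.8 for the windows of all genes. The family's median window was 4309 bp and that of all genes 4027 bp.

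Replicate 1's own ranked list put a summit at 192 of the 269 genes (71.4%, 65.6 to 76.7), beside 74.1% of all genes. For replicate 2 it was 194 genes (72.1%, 66.4 to 77.4), beside 74.7%. Both replicates had a summit at 155 genes, which is 80.7% of the first set and 79.9% of the second. A further 37 genes had one in replicate 1 only and 39 in replicate 2 only. The remaining 38 genes had none in either, and 34 of these had none in the list for both replicates either. The overlap of the replicates was not counted over all genes, so these sets cannot be compared with the general rate.

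Most signals lay close to those of other genes. Over the 166 genes, the highest ranked signal of a gene ranged from 11.8 to 214 with a median of 31.1, against a median of 32.1 over all genes with a ranked summit. In replicate 1 the range was 10.8 to 97.99 with a median of 18.04 (18.7 over all genes). In replicate 2 it was 9.41 to 119 with a median of 16.2 (16.5 over all genes). The 370 family summits outside the conservative list had signals from 2.32 to 60.8. Of the 376 summits, 9 passed an IDR of 0.05 (2.39%, against 3.80% of all ranked peaks) and 6 passed 0.01 (1.60%, against 2.57%), which were the 6 conservative ones.

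The linear correlation between replicates was much lower without the 6 conservative peaks. In all, 164 of the 376 summits overlapped a ranked peak of both replicates. Across those 164, log10 signals of the replicates had a Pearson r of 0.557 and a Spearman rho of 0.213. Across the 158 outside the conservative list r was 0.145 and rho 0.121. Conservative peaks passed a threshold on reproducibility, so a lower r without them follows in part from that choice. Over all 13865 ranked peaks with a partner in both replicates, r was 0.627 and rho 0.299. That set includes conservative peaks and compares with the 164, and no value without them was computed to set beside the 158. These are descriptions across peaks of the same libraries, some of which share a replicate peak.

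**Figure D2:**
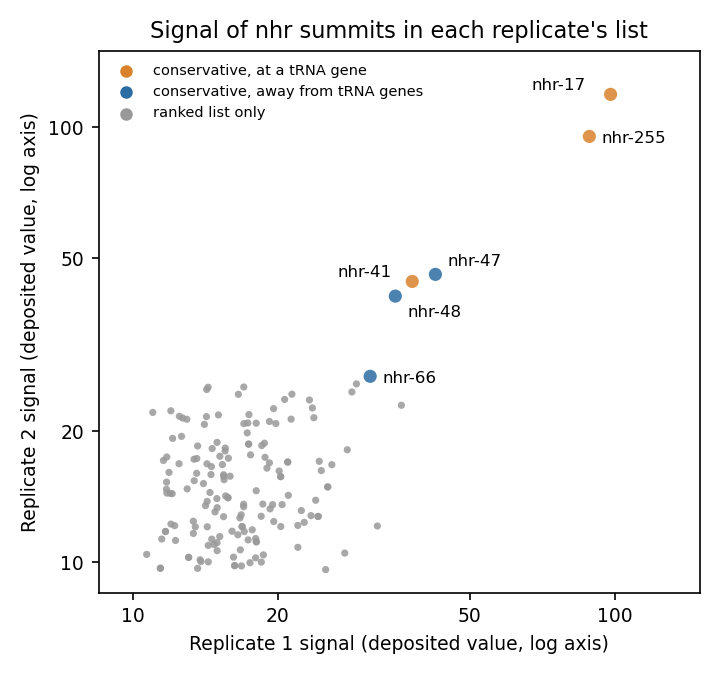
Signal of 164 nhr summits in replicate 1 (horizontal) and replicate 2 (vertical), both log axes, each value being the deposited signal of the overlapping peak in that replicate's ranked list. Orange and blue points are the 6 conservative summits, which run from 31.1 and 26.8 at nhr-66 to 97.99 and 119 at nhr-17, and the 158 grey points form a cloud with r of 0.145.

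Chromosome V holds 167 of the 269 genes (62.1%), compared with 25% of all protein-coding genes. There 100 members had a ranked summit (59.9%, 52.0 to 67.4), beside 55.7% of all genes on V. Off V it was 66 of 102 members (64.7%, 54.6 to 73.9), beside 67.6%. On X, 20 of 23 members had one (86.96%, 66.4 to 97.2), beside 63.7% of all genes there, and the median member window on X was 6483 bp. On I it was 11 of 23 (47.8%, 26.8 to 69.4), beside 72.4%, with a median member window of 4322 bp. The remaining counts were 9 of 15 on II, 6 of 8 on III and 20 of 33 on IV, beside 67.2%, 74% and 61.7% of all genes on those chromosomes. The X and I intervals lie above and below the values for all genes of those chromosomes. They are 2 of 6 chromosomes looked at, and no adjustment was made. Both intervals include the share for all genes of like window length, 86.9% for windows over 6 kb and 67.5% for 4 to 6 kb. The part of window length was not tested.

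**Figure D3:**
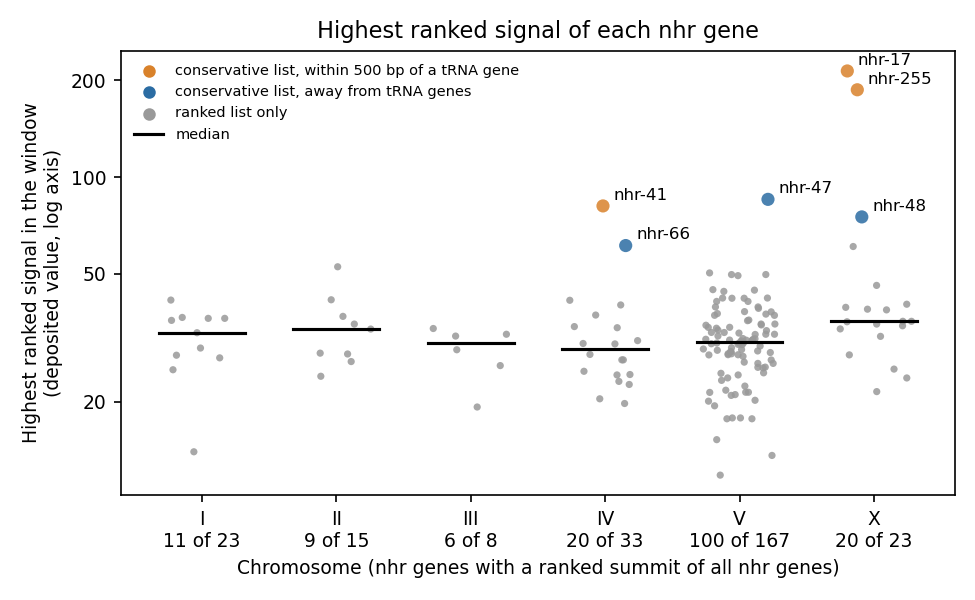
Highest ranked signal (deposited value, log axis) of each nhr gene that had a ranked summit, by chromosome, with the number of such genes of all nhr genes under each name and the median as a black line. Medians run from 29.1 on IV to 35.6 on X, and the 6 genes of the conservative list, in orange (at tRNA genes) and blue, lie on IV, V and X.

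Of the 6 conservative peaks at family members 3 were on X, 2 on IV, 1 on V and none on I, II or III, which hold 23, 15 and 8 members. Of all 631 conservative peaks X held 134, the most of any chromosome, and V 85, the fewest. These are counts of peaks, and the share of all genes with a conservative summit was not computed by chromosome. Per 100 kb of window on V, conservative summits numbered 0.154 for the family, from 1 summit, and 0.446 for all genes. Off V the values were 0.722, from 5 summits, and 0.669. Of the 612 nuclear tRNA genes, 276 (45.1%) are on X, where both of the strongest family peaks lay. All 4 ranked summits of the family within 500 bp of a tRNA gene (1.06% of its ranked summits) were off V, which carries 78 tRNA genes. In the windows of all genes the share was 1.30%, with 0.877% on V and 1.40% off V.

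The share of members with a ranked summit was higher for longer windows. With windows over 6 kb, 53 of 57 members had a ranked summit (93.0%, beside 86.9% of all genes with such windows). The 4 without one were nhr-216, nhr-26, nhr-274 and nhr-67. From 4 to 6 kb it was 71 of 119 (59.7%, beside 67.5%), from 3 to 4 kb 41 of 88 (46.6%, beside 54.8%), and under 3 kb 1 of 5 (beside 49.9%). The exact 95% intervals of these shares, 83.0 to 98.1, 50.3 to 68.6, 35.9 to 57.5 and 0.505 to 71.6, all include the value for all genes. Among members with another member within 10 kb, as in tandem clusters, 88 of 159 had a ranked summit (55.3%), against 78 of 110 of the others (70.9%). The median windows of these sets were 4140 and 5221 bp, and the part of window length in that difference was not tested. Of all genes with windows of 4 to 6 kb 67.5% had a ranked summit, and of all genes on V, where 122 of the 159 lie, 55.7%.

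The genes with most ranked summits were nhr-27 with 14, nhr-1 with 13, nhr-41 with 10 and nhr-34 with 9. The nhr-27 gene spans 102756 bp, and the highest of its summits had a ranked signal of 34.9, beside the median highest signal of 31.1 over the family. The 3 highest in nhr-1 were 60.8, 44.6 and 43.5, at 7328, 11732 and 9481 bp from the 5' end. Of all 166 genes, 55 had 1 summit, 98 had 2 to 4 and 13 had 5 or more. Among all protein-coding genes, 12902 had a ranked summit, of which 5094 had 1, 6356 had 2 to 4 and 1452 had 5 or more.

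Summits lay both upstream of the genes and within them. Of 405 pairs of a summit and a gene, 159 (39.3%) were upstream of the 5' end and 146 (36.05%) in introns. Coding exons took 80 (19.8%) and untranslated regions 20 (4.94%). The median signals of these 4 kinds were 26.7, 27.8, 24.9 and 26.9. The nearest protein-coding 5' end belonged to a family member for 317 of the 376 summits (84.3%), and 29 summits fell in the windows of more than 1 member. A protein-coding 5' end was at most 500 bp away for 123 summits (32.7%, 27.99 to 37.7), beside 31.3% of ranked summits in the windows of all genes. By the exons of any gene, coding sequence held 25% of family summits (20.7 to 29.7), beside 30.02%. For members on V the coding exon share was 35.3% (28.1 to 42.98), and for members off V 16.5% (11.7 to 22.3), beside 32% and 29.6% in the windows of all genes on and off V. The interval off V lies below the value for all genes there, with no adjustment for the number of shares looked at.

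**Figure D4:**
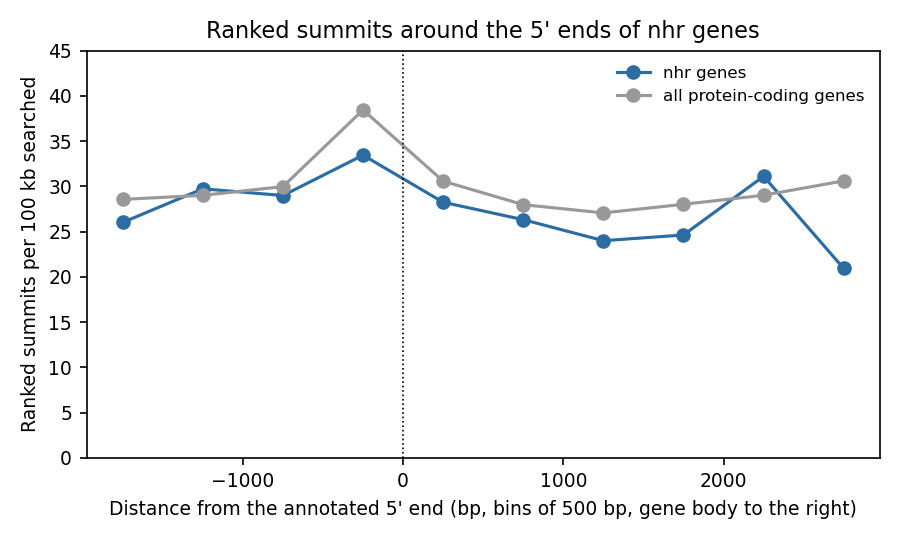
Ranked summits per 100 kb of sequence searched (vertical) in bins of 500 bp by distance from the annotated 5' end (horizontal), for nhr genes (blue) and all protein-coding genes (grey). Both peak in the bin just upstream, at 33.5 and 38.5, and the family's value there rests on 45 summits.

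Sequence patterns within 100 bp of the 376 ranked summits were compared with those of all ranked peaks. GAGAGA was found at 62 (16.5%, 12.9 to 20.6), beside 14.7% of all ranked peaks. By chromosome it was at 9.41% (5.48 to 14.8) of family summits on V and 22.3% (16.8 to 28.6) off V, while the windows of all genes gave 12.5% and 14.7%. TGATAA was at 41 (10.9%, 7.94 to 14.5), beside 14.1%. On V it was at 8.24% (4.58 to 13.43), beside 15.04% in the windows of all genes there, and off V at 13.1% (8.82 to 18.5), beside 14.3%. AGGTCA was at 24 (6.38%, 4.13 to 9.35), beside 5.21%. On V it was at 2.35% (0.645 to 5.91), beside 5.22%, and off V at 9.71% (6.03 to 14.6), beside 5.12%. The interval excludes the value for all genes for GAGAGA and AGGTCA off V, which are higher, and for TGATAA on V, which is lower. No adjustment was made for the number of shares looked at, and several summits can come from the same gene. The COE palindrome was at 0 of 376, which allows a share of up to 0.798% when 3 summits are taken as the limit of a count of 0 (exact 95% upper limit 0.976%), beside 0.366% of all ranked peaks. With a pyrimidine or purine allowed at its ends it was at 1, beside 0.706% of all ranked peaks. That site lay in a coding exon of nhr-166, centred 7.5 bp from the summit, at chrII:3881844-3881853. Its peak had a ranked signal of 17.9, with 12.9 in replicate 1 and no peak in replicate 2. The site is shown in capitals with its flanks on the plus strand.
nhr-166: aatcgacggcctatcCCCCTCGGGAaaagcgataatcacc

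The 20 family members with the highest ranked signal away from tRNA genes ranged from 85.3 at nhr-47 to 41.4 at nhr-78, where the next member below had 41.02. They rest on 18 summits, because nhr-115 and nhr-225 share 1 (signal 42.03) and nhr-106 and nhr-211 share another (41.97). Of the 20 genes 12 lie on V, and the summit was upstream of the gene for 11, in an intron for 6, in a coding exon for 2 and in an untranslated region for 1. After nhr-47, nhr-48, nhr-66 and nhr-1 came nhr-61 with 52.6 (23.3 in replicate 1 and 23.6 in replicate 2), nhr-15 with 50.3 (28.5 and 24.6), nhr-291 with 49.7 (21.4 and 24.3) and nhr-70, also with 49.7 (23.6 and 22.6). The summit counted for nhr-15 lay 67 bp from the 5' end of another gene, phf-10. The summit of nhr-141 (49.4, with 29.1 and 25.7) lay 931 bp upstream and had a −log10 IDR of 1.83, the highest outside the conservative list. Further down were nhr-14 (46.02), nhr-60 (44.6), nhr-53 (44.5), nhr-162 (44.1), nhr-88 (41.5) and nhr-49 (41.4). In replicate 1 these 20 genes ranged from 16.6 to 42.4 and in replicate 2 from 16.8 to 45.9.

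Among 11 receptors with counterparts in other animals, 9 had a ranked summit, with 38 summits in all, and 2, nhr-41 and nhr-48, had a conservative one. Their median highest signal was 35.8 and their median window 7472 bp. Of all genes 64.6% had a ranked summit and 3.59% a conservative one. With windows over 6 kb, 86.9% of all genes had a ranked one, so the list's share with a ranked summit is near that of genes with long windows. The conservative share by window length was not computed. The windows of nhr-41 and nhr-48 are 15139 and 10663 bp, and the nhr-41 conservative summit is inside a tRNA gene. The gene nhr-91, related to the germ cell nuclear factor, had 39.3 (14.3 in replicate 1 and 25.2 in replicate 2), 55 bp from a 5' end. The xenobiotic response receptor gene nhr-8 had 37.2 (19.8 and 20.8) in an intron, and nhr-85, the counterpart of Rev-erb, had 35.8 (14.96 and 18.9) in a coding exon. The gene nhr-25, related to FTZ-F1 and needed in the epidermis, had 34.5 (17.3 and 19.8) at 222 bp upstream. The gene nhr-239 had 33.8 (14.5 and 15.9). The moulting regulator nhr-23 had 27.4 with no overlapping peak in either replicate's ranked list. In the nhr-23 window, replicate 1 had 1 summit (17.7) and replicate 2 had 5 (highest 20.1). The gene nhr-6, of the NR4A group, had 25.9 (16.2 and 10.3). The genes nhr-67, the counterpart of tailless, and nhr-111 had no ranked summit for both replicates, although each replicate alone had 1 in each gene's window. Those at nhr-67 had 14.5 in replicate 1 and 12.9 in replicate 2, and those at nhr-111 had 23.9 and 10.1.

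All 12 receptors listed for metabolism and stress had a ranked summit, 37 in all, with a median highest signal of 31.2 and a median window of 6687 bp. Only nhr-66 had a conservative one. The 12 windows include lengths of 4 to 6 kb and over 6 kb. Of all genes with such windows, 67.5% and 86.9% had a ranked summit. Over all genes 3.59% had a conservative summit. The median highest signal over all genes was 32.1, close to that of the list. The gene nhr-49, a regulator of fatty acid metabolism, had 41.4 (16.997 in replicate 1 and 25.3 in replicate 2) at 168 bp upstream of its 5' end. Its partner genes nhr-80 and nhr-13 had 29.0 and 21.03. The gene nhr-14, known for iron uptake, had 46.02 (23.8 and 21.5), and nhr-10 and nhr-68, which act in propionate metabolism, had 31.999 and 19.4. The 3 other embryonic and epidermal receptors, nhr-2, nhr-40 and nhr-60, had 36.6, 38.6 and 44.6. The replicates differed at this nhr-40 summit, with 32.6 in replicate 1 and no overlapping peak in replicate 2. Replicate 2 had 6 summits in the nhr-40 window, the highest 16.5. The summits of nhr-13 and nhr-68 had no overlapping peak in replicate 1, with 9.69 and 12.04 in replicate 2. Replicate 1 had 3 summits in the nhr-13 window, the highest 27.1, and 1 in the nhr-68 window, with 14.8.

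Of 5 receptor genes not named nhr-, 4 had a ranked summit and 1, daf-12, the dafachronic acid receptor gene, a conservative one with a signal of 51.5. The motor neuron gene unc-55 had 35.7, fax-1 24.2 and sex-1 21.9, and odr-7 had none in the list for both replicates. In the odr-7 window, replicate 1 alone had 3 summits (highest 21.5) and replicate 2 had 1 (13.0). The unc-55 summit had no overlapping peak in replicate 1, and the sex-1 summit had none in replicate 2. The shares over all genes are those given above, 64.6% with a ranked and 3.59% with a conservative summit, and 86.9% with a ranked one for windows over 6 kb. Of 6 genes for cofactors and hormone enzymes, 5 had a ranked summit, and the conservative list held a summit at cbp-1, a histone acetyltransferase gene (101, with 57.8 in replicate 1 and 41.5 in replicate 2), and at din-1, the gene of a DAF-12 corepressor (69.4, with 39.9 and 30.1). The gene daf-36 had no ranked summit for both replicates, although replicate 1 alone had 1 (13.9). The windows of daf-12, din-1 and cbp-1 are 32968, 20840 and 10317 bp, and no conservative share was computed for such lengths.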

How the data were processed

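ChIP-seq peak lists from 2 biological replicates were used as the authors deposited them on ce11, per the labels. The authors' deposited signal value per peak has no stated unit, and the twelfth column of the deposited ranked lists was read as −log10 of the IDR, from the layout of such lists, since no header names it. The aligner, the peak caller and the read depth are not stated in the sources used here, so the depth is unknown and its effect on weak peaks cannot be judged. Replicates are labelled biological, with no more detail.

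Genes and tRNA genes came from Ensembl 115 (WBcel235), sequences and tRNA products from RefSeq. All peaks lay within the chromosome lengths of that build. Mitochondrial peaks were left out. Peaks were matched between lists by at least 1 bp, taking the nearest summit. Shares carry 95% Clopper-Pearson (exact) intervals over genes or summits, which are not replicates. No test was made, since there is 1 group. Values stand beside that of all protein-coding genes, or of all peaks of the same list, where such a value was computed. Some counts and shares have none. Window assignment was tested on simulated data. The family, the lists and the named genes were chosen with earlier results of these data known. Named genes are those with a conservative summit, the 20 of highest ranked signal away from tRNA genes and members of the lists. The genes with most summits, long windows or a COE-like site were chosen after their values were seen. Python 3.11.15, pandas 2.3.3 and SciPy 1.17.1 were used.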

Additional observations from a re-analysis of the deposited data

How the results depend on the processing

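Of 53 recomputed values, 41 stayed within the stated range of the reported one, 1.5 times for counts and the spread between replicates or the 95% interval for other values. The 166 and 165 genes with a ranked summit did so under every alternative run, from 120 to 194. The 6 genes with a conservative summit became 2 to 4 with the thresholded list of 1 replicate, and the 3 away from tRNA genes became 0 to 2, with 0 in the list of replicate 1. Windows of 500 bp upstream gave 4 and 2, since the nhr-48 and nhr-255 summits lie 550 and 551 bp upstream, and counting any overlapping base gave 7 and 4, adding nhr-232 on V. The median percentile of a gene's highest signal within the ranked list was 68.1, beside 71.7 over all genes with a ranked summit. For the family it was between 65.8 and 67.8 in the lists of single replicates. With 500 and 1000 bp upstream it was 65.8 and 65.7, and 77.2 when limited to the stronger ranked peaks. The rate of 0.280 ranked summits per kb was 0.311 to 0.323 in single replicates, 0.220 in the other ranked list and 0.138 among the stronger ranked peaks, which are fewer. The share of summits near a 5' end, 32.7%, was 29.7% to 33.97% in single replicates, 38.2% with 500 bp upstream and 16.2% with a limit of 250 bp. Other causes were not tested. No paired analysis was possible because there is 1 group.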
